A study of Mus musculus with 9 samples.

Results

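The transcripts of 10 genes that carry sulfur from homocysteine to cysteine, glutathione and taurine were followed in the mouse hippocampus. They were selected by symbol, with earlier results of these data known: Cth, Slc7a11, Gclc, Gclm, Gss, Gsr, Gpx1, Gpx4, Cdo1 and Csad, 10 of the 54532 genes listed in each deposited table. RNA was sequenced from 9 hippocampus samples of C57BL/6 mice, 6 to 8 weeks old when obtained, with no engineered allele, which form 3 groups of 3. The controls (Con) were on a standard diet, and the HMD group was on a high-methionine diet for 8 weeks. In the Bet+HMD group the 8 weeks of methionine diet were followed by 2 weeks of 2.5% (w/v) betaine in the drinking water, betaine being a methyl donor that returns homocysteine to methionine. It is not clear whether the methionine diet continued in those weeks. The labels say that the mice were male and the study's methods say female. In 9 of 9 libraries the summed level of Ddx3y, Uty, Kdm5d and Eif2s3y, which lie on the Y chromosome, was above 1 FPKM, and Xist was at most 0.0449 FPKM. The strain tags of the 3 Bet+HMD samples read C57BL/6, C57BL/7 and C57BL/8, and the other samples have no strain tag of their own. The labels do not say that each sample is a separate animal, so p-values measure the spread between these samples, which may in part be technical.

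Homocysteine is formed from methionine. It is either returned to methionine or passed to cysteine by transsulfuration, in which Cbs joins it to serine and Cth splits the product. Cysteine can also enter the cell as cystine, its oxidized pair, through the exchanger whose transport subunit is Slc7a11. Gclc, the catalytic subunit of glutamate-cysteine ligase, and Gclm, its modifier subunit, make the first bond of glutathione, and Gss adds the last amino acid. Gpx1 and Gpx4 are selenium-containing peroxidases that spend glutathione on peroxides, Gpx4 on those in membrane lipids, and Gsr returns the oxidized form with NADPH. Cdo1 and Csad turn cysteine toward taurine instead. In the brain, astrocytes are known to make much of the glutathione and to supply neurons with its precursors.

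Levels are given in FPKM, in which fragments are divided by the length of the gene and a scaled size of the library, so they can be compared between genes. The Con and HMD samples stand in an earlier table and, with slightly different values, again in a later table together with the Bet+HMD samples. A library held 16449388 to 18566712 reads in genes by the earlier table, and 16031464 to 18291952 by the later one. Since all 3 Bet+HMD libraries came to the series later than the others, betaine and the time of collection or sequencing cannot be told apart. The 2 weeks of betaine also came after the 8 weeks of diet. Betaine thus cannot be told apart from that added time, or from the end of the methionine diet if it stopped. Markers of hippocampal neurons summed to 736 to 831 FPKM in Con, 682 to 819 in HMD and 735 to 753 in Bet+HMD. Most of this sum was Camk2a, at 557 to 574 FPKM in Bet+HMD. Of the 6 neuron markers Bok was called lower against HMD and Con, at 8.58 to 9.99 FPKM beside 25.9 to 35.7 and 25.4 to 36.3, and the other 5 were not called. Astrocyte markers summed to 228 to 235, 227 to 248 and 195 to 196 FPKM in the same order, and were lower in every Bet+HMD library than in the others. Of the 5 astrocyte markers Gfap and Gja1 were called lower against HMD and Con, whereas Slc1a3, at 87.2 to 88.4 FPKM, and Aldh1l1, at 8.22 to 9.05, lay within the range of Con and HMD. Thalamus markers, most of which should be low in a clean hippocampus, summed to 25.0 to 40.1 in Con, 43.6 to 89.9 in HMD and 25.1 to 26.3 in Bet+HMD. Among them Calb2 was a large part of the sum in Con, at 10.5 to 28.0 FPKM, and overlapped HMD, at 23.1 to 33.8. The other 4 did not overlap between Con and HMD. Endothelial markers summed to 43.1 to 54.7, 39.9 to 50.3 and 36.3 to 37.6, so that Bet+HMD was below both groups. Of the 5 endothelial markers 2 were called lower against HMD and 1 was called higher. Cldn5 and Ly6c1 were lower in every Bet+HMD library than in every HMD library, whereas Flt1 and Cdh5 were higher. Oligodendrocyte markers summed to 581 to 965, 656 to 865 and 623 to 632, so that Bet+HMD was below HMD. Of these 5 markers 3 were called lower against HMD, and Mbp and Mag overlapped HMD. Microglia (69.4 to 85.9, 60.3 to 71.9 and 59.7 to 63.4), choroid plexus (770 to 3207, 864 to 2568 and 936 to 1209) and striatum (14.97 to 24.4, 14.7 to 25.4 and 16.6 to 20.2) overlapped between Bet+HMD and HMD. Blood markers summed to 99.8 to 148, 149 to 233 and 72.2 to 122, and none of the 46 marker genes was at 0 in a whole group. In tissue, fewer cells of a type and less RNA per cell cannot be told apart. The part of these differences in the results below was not tested.

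All 10 genes were expressed, and all 10 passed the filter of a mean of 1 FPKM in every comparison. Gpx4 was highest, with 99.96 ± 19.4 FPKM in Con, 104.6 ± 10.4 in HMD and 38.1 ± 4.02 in Bet+HMD (mean ± SD, n = 3, later table). Gpx1 was next in Con and HMD, at 32.8 ± 6.51 and 37.3 ± 3.33 FPKM. Gclc and Gclm followed, and their ranges overlapped in both groups, as did those of Slc7a11 and Csad further down. The lowest levels were those of Gss, at 2.28 ± 0.553 FPKM in Con, and Cth, at 1.55 ± 0.202 FPKM. The 2 peroxidases thus stood above the genes that make glutathione or supply its cysteine. In Bet+HMD the mean of Gpx1, 14.7 ± 2.77 FPKM, was under that of Gclc, 17.3 ± 1.40 FPKM, with overlapping samples, and that of Csad was above that of Slc7a11, also with overlap. Cth had the fewest reads, 24 to 101 per library, whereas the other 9 genes had at least 100 reads in every library.

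**Figure D1:**
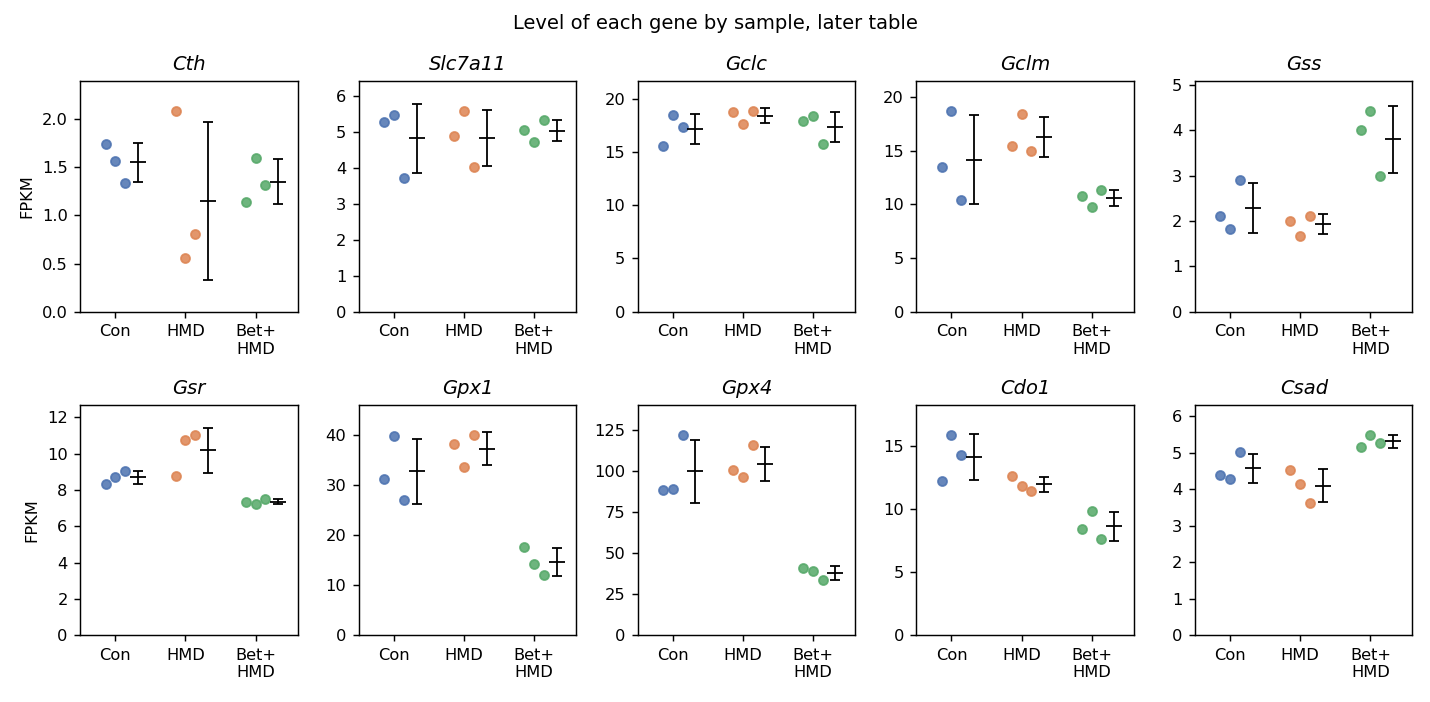
Level of each gene in FPKM (vertical axes, each from 0) in the 9 samples of the later table, with 1 point per sample and the mean ± SD of each group beside it in black. The 3 Bet+HMD samples of Gpx4 and Gpx1 lie far below all Con and HMD samples, those of Gss lie above them, and those of Gclc and Slc7a11 lie among them.

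The comparison of HMD with Con sets the methionine diet beside the standard diet, without betaine. The 2 groups also did not overlap in thalamus markers, which summed to 25.2 to 39.3 FPKM in Con and 42.2 to 88.7 in HMD (earlier table). Blood markers overlapped narrowly there, at 98.0 to 147.5 and 146.8 to 229.6 FPKM. The part of these differences was not tested. No member passed an adjusted p under 0.05 in limma (0 of 10), and none had an unadjusted p under 0.05, as against 0% of all 12989 genes tested by the adjusted and 4.56% by the unadjusted threshold. limma voom on recovered reads also called 0 members. HMD and Con samples overlapped for all 10 genes, whereas they did not overlap for 9.37% of genes tested. Log2 fold changes ran from -0.25 for Cth to 0.23 for Gclm on the log2(FPKM + 1) scale, with a median of 0.04 beside -0.0038 over all genes. For Cth the Con samples had 1.73, 1.52 and 1.32 FPKM in the earlier table, and the HMD samples had 2.04, 0.689 and 0.846. One HMD library was thus above every Con library and the other 2 were below, and the 95% interval of the difference ran from -0.79 to 0.29. Gclm was at 13.2, 18.3 and 10.1 FPKM in Con and 15.3, 18.0 and 14.8 FPKM in HMD, with an interval of -0.24 to 0.69. The intervals of Gclc, at -0.14 to 0.34, Gsr, at -0.07 to 0.47, and Csad, at -0.38 to 0.13, all hold 0.

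After betaine, 7 of the 10 genes differed from HMD and 4 differed from Con. Against HMD, 5 fell (Gpx4, Gpx1, Gclm, Cdo1 and Gsr) and 2 rose (Gss and Csad). Among all 13672 genes tested 25.5% fell and 22.8% rose, so a change in itself is common here. Against Con, 3 fell (Gpx4, Gpx1 and Cdo1) and 1 rose (Gss), where 20.4% of 13643 genes fell and 19.4% rose. Gpx4 and Gpx1 were past 1 in absolute log2 fold change in both comparisons, 2 of 10 genes beside 8.93% and 8.74% of all genes. Bet+HMD samples did not overlap HMD samples for 7 of 10 genes, against 60.1% of all genes, and did not overlap Con samples for 6 of 10, against 55.1%. The median log2 fold change of the 10 genes was -0.25 against HMD and -0.17 against Con, while that of all genes was -0.03 and -0.04. Genes with a mean of at least 5 FPKM leaned lower, with medians of -0.14 against HMD and -0.13 against Con. With that filter 4166 of 7549 genes were called against HMD, 32.8% of them higher. Against Con 3260 of 7585 were called, 33.1% of them higher. These comparisons share the Bet+HMD samples, and that of HMD with Con shares a control group with each of them, so they are not independent.

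**Figure D2:**
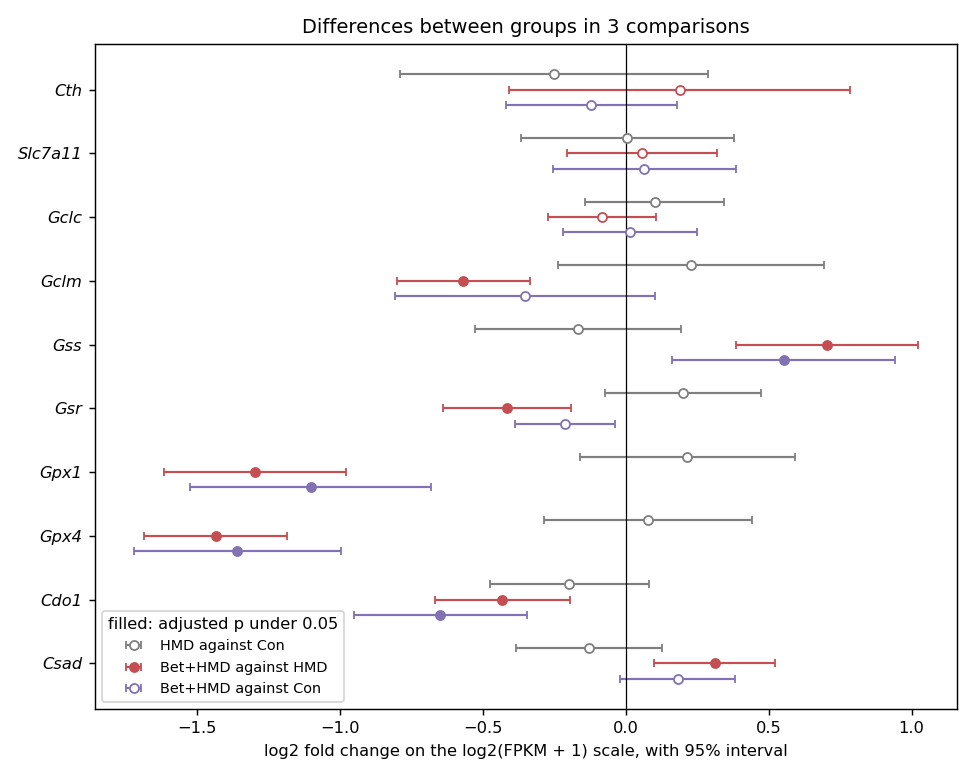
Log2 fold change of each gene on the log2(FPKM + 1) scale (horizontal axis) with its 95% interval in 3 comparisons, filled where the adjusted p of limma was under 0.05. Every point of HMD against Con is open, the filled points of Gpx4 and Gpx1 lie beyond -1, and those of Gss lie to the right of 0.

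Cth and Slc7a11, the members that supply cysteine, were not called in any comparison. Cth (ENSMUSG00000028179, chr3:157894248-157925077, minus strand, GRCm38, as are all positions here) codes for cystathionine gamma-lyase. It had 1.74, 1.57 and 1.34 FPKM in Con, 2.08, 0.561 and 0.806 in HMD, and 1.13, 1.60 and 1.32 in Bet+HMD. The HMD samples spanned the range of all others. The difference of Bet+HMD was 0.19 (SE 0.254, 95% interval -0.41 to 0.79) on the log2 scale against HMD and -0.12 (interval -0.42 to 0.18) against Con, and neither was called by limma (adjusted p = 0.569 and 0.484). The HMD libraries held 101, 24 and 38 reads of Cth, a wider spread than the 64 to 88 of Con and the 55 to 79 of Bet+HMD. Its partner enzyme Cbs, more abundant, stood at 7.34, 7.23 and 7.96 FPKM in Con, 8.73, 6.81 and 7.24 in HMD and 9.25, 9.40 and 9.04 in Bet+HMD. All 3 Bet+HMD samples lay above the other 6. The log2 fold change of Cbs was 0.27 (SE 0.0755, limma adjusted p = 0.0300) against Con and 0.26 (SE 0.0955, adjusted p = 0.0594) against HMD. Against Con, the call of Cbs was lost with all 9 samples in 1 fit (adjusted p = 0.0517), without Con replicate 1 (0.0695) and without each Bet+HMD replicate (0.108, 0.121 and 0.0913). Against HMD it was called in 7 of 18 alternatives, among them TPM (adjusted p = 0.00844), voom (0.0331), the length correction (0.0168) and leaving out HMD replicate 1 (0.0142).

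Slc7a11 (ENSMUSG00000027737, chr3:49892526-50443614, minus strand) had 5.28, 5.47 and 3.72 FPKM in Con, 4.88, 5.58 and 4.03 in HMD and 5.06, 4.73 and 5.32 in Bet+HMD. The Bet+HMD samples lay within the range of the other groups. Its log2 fold change was 0.06 (interval -0.20 to 0.32) against HMD and 0.07 (interval -0.26 to 0.39) against Con. Its reads numbered 885 to 1330 per library. Slc7a11 is known to be induced when amino acids run short, through a short promoter element. The 250 bases before its RefSeq start (GRCm38.p6, chr3:50443614-50443863, minus strand) are shown because they hold this element and the transcript showed no called difference. TGATGNAA was searched on both strands and found 2 times, 66 and 47 bases before the start and in opposite orientation, marked in capitals. The same letters occur in 3.45% of 32851 promoter windows of this length.
Slc7a11: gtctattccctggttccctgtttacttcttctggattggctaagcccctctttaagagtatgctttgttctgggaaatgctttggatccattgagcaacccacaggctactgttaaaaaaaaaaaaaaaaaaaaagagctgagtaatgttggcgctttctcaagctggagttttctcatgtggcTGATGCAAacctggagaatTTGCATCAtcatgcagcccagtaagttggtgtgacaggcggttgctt

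In glutathione synthesis Gss rose in both comparisons, Gclm fell against HMD, and Gclc was not called. Gclc (ENSMUSG00000032350, chr9:77754535-77794485, plus strand), which carries the catalytic site of the first step, had 15.6, 18.4 and 17.4 FPKM in Con, 18.7, 17.6 and 18.8 in HMD and 17.9, 18.3 and 15.7 in Bet+HMD. The groups overlapped, and the log2 fold change was -0.08 (SE 0.0803, interval -0.27 to 0.10) against HMD and 0.02 (interval -0.22 to 0.25) against Con. Gclm (ENSMUSG00000028124, chr3:122245557-122270732, plus strand), whose product makes the catalytic subunit more efficient, had 15.4, 18.4 and 14.9 FPKM in HMD and 10.7, 9.78 and 11.3 in Bet+HMD. Every Bet+HMD sample was below every HMD sample, and Gclm fell by 0.57 on the log2 scale (SE 0.0989, limma adjusted p = 0.00319). The Con samples of Gclm, at 13.4, 18.7 and 10.4 FPKM, spread over both ranges. Against Con the log2 fold change was -0.35 (interval -0.81 to 0.10, limma adjusted p = 0.185), and without Con replicate 3 it was -0.54 (adjusted p = 0.0253). Exons of Gclm share 296 bases with Gm17494 on the other strand, which was at 0.261 to 0.821 FPKM in the group means.

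Gclm is also known as a target of the factor Nfe2l2, which binds the antioxidant response element. The 250 bases before the RefSeq start of Gclm (GRCm38.p6, chr3:122245307-122245556, plus strand) are shown because Gclm fell and its catalytic partner was not called. The core TGACNNNGC, searched on both strands, occurs 1 time, 134 bases before the start, on the opposite strand and in capitals. Of the 32851 windows, 10.2% hold it. Windows were given for 6 of the 10 genes, and neither motif was found in those of Csad, Gpx1, Gpx4 or Gss. Cth, Gclc, Gsr and Cdo1 had no window.
Gclm: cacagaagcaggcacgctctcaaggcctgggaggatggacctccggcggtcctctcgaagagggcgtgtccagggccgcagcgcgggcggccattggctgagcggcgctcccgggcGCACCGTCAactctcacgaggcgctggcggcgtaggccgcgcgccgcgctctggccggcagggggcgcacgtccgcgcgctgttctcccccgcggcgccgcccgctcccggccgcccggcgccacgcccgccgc

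Gss (ENSMUSG00000027610, chr2:155563181-155592810, minus strand), glutathione synthetase, moved the other way. It had 2.12, 1.83 and 2.90 FPKM in Con, 2.00, 1.68 and 2.11 in HMD and 4.01, 4.43 and 2.99 in Bet+HMD. All Bet+HMD samples were above all others, although the lowest of them was close to the highest Con sample. The mean was 1.97 times that of HMD and 1.67 times that of Con. On the log2(FPKM + 1) scale the rise was 0.71 (SE 0.135, limma adjusted p = 0.00479) against HMD and 0.55 (SE 0.165, adjusted p = 0.0354) against Con. The call against Con was lost without Con replicate 1 (adjusted p = 0.0955), Con replicate 2 (0.0824), Bet+HMD replicate 1 (0.111) or Bet+HMD replicate 2 (0.121), and that against HMD was kept in each of its alternatives. Gss shares 395 exon bases with Acss2 on the other strand, a gene at 4.52, 4.04 and 3.73 FPKM in Con, HMD and Bet+HMD, as well as 385 with Gssos2, listed at 0, and 322 with Gssos1. No source used here says that reads were counted by strand, so part of the reads of Gss could belong to these genes.

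Peroxide removal showed the largest differences among the 10 genes. Gpx4 (ENSMUSG00000075706, chr10:80047166-80056439, plus strand) had 88.4, 89.2 and 122 FPKM in Con, 101, 96.6 and 116 in HMD and 41.3, 39.3 and 33.6 in Bet+HMD. The highest Bet+HMD sample was under every other sample by a wide margin. Gpx4 fell by 1.43 (SE 0.106, limma adjusted p = 0.00011) against HMD, where the HMD mean was 2.75 times that of Bet+HMD, and by 1.36 (SE 0.152, adjusted p = 0.000984) against Con. A pseudogene, Gpx4-ps2, had 480 to 535 reads in Con, 535 to 612 in HMD and 127 to 267 in Bet+HMD, and reads of the 2 could have been shared out between them. Summed over both, the reads were 2993 to 4142 in Con, 3086 to 3956 in HMD and 1135 to 1505 in Bet+HMD, with the same lack of overlap.

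Gpx1 (ENSMUSG00000063856, chr9:108338903-108340343, plus strand), the peroxidase of the cytosol and mitochondria, had 31.3, 39.9 and 27.1 FPKM in Con, 38.3, 33.6 and 40.1 in HMD and 17.7, 14.3 and 12.2 in Bet+HMD. Here too the Bet+HMD samples lay below all others. Gpx1 fell by 1.30 (SE 0.135, limma adjusted p = 0.000387) against HMD and by 1.10 (SE 0.178, adjusted p = 0.00369) against Con. Red blood cells express Gpx1. The sum of blood markers of every Bet+HMD library was below that of every HMD library and overlapped that of Con. Of the 5 blood markers 1 was called higher and 1 lower against Con. The part of blood in the fall of Gpx1 was not tested. Gpx4 and Gpx1 were called in all 18 alternative settings of both comparisons, with log2 fold changes against HMD from -1.50 to -1.12 for Gpx4 and from -1.43 to -1.07 for Gpx1.

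Gsr (ENSMUSG00000031584, chr8:33652523-33698163, plus strand), which recycles the glutathione that the peroxidases oxidize, fell less. It had 8.31, 8.71 and 9.04 FPKM in Con, 8.78, 10.7 and 11.03 in HMD and 7.36, 7.21 and 7.49 in Bet+HMD. The Bet+HMD samples were close to each other and below all others. Gsr fell by 0.42 (SE 0.0948, limma adjusted p = 0.00993) against HMD. Against Con the log2 fold change was -0.21 (SE 0.0737, adjusted p = 0.0561). Rescaling to TPM, which sets each library to the same sum, ended the call against HMD (-0.25, adjusted p = 0.0811).

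The taurine branch split, with its first enzyme lower and its second higher after betaine. Cdo1 (ENSMUSG00000033022, chr18:46713205-46728342, minus strand), cysteine dioxygenase, had 12.2, 15.8 and 14.2 FPKM in Con, 12.6, 11.8 and 11.4 in HMD and 8.39, 9.87 and 7.62 in Bet+HMD. No Bet+HMD sample reached the lowest HMD or Con sample. Cdo1 fell by 0.43 (SE 0.10, limma adjusted p = 0.0105) against HMD and by 0.65 (SE 0.128, adjusted p = 0.00784) against Con. TPM ended the call against HMD (-0.27, adjusted p = 0.0747), and a correction for gene length ended it against both HMD (-0.20, adjusted p = 0.143) and Con (-0.35, adjusted p = 0.0867).

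Csad (ENSMUSG00000023044, chr15:102176999-102204724, minus strand), the decarboxylase that follows, had 4.40, 4.28 and 5.02 FPKM in Con, 4.52, 4.16 and 3.62 in HMD and 5.15, 5.49 and 5.28 in Bet+HMD. The Bet+HMD samples were above all others by a small margin. Csad rose by 0.31 (SE 0.0897, limma adjusted p = 0.0249) against HMD, and the difference from Con was 0.18 (SE 0.085, adjusted p = 0.132). The call against HMD was lost without Bet+HMD replicate 1, 2 or 3 (adjusted p = 0.0653, 0.0927 and 0.0740), and a call against Con appeared without Con replicate 3 (0.24, adjusted p = 0.0424). Csad shares 278 exon bases with Zfp740 on the other strand, which was at 11.8, 10.9 and 13.5 FPKM in Con, HMD and Bet+HMD.

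Ratios of 2 genes within a library do not depend on how the library was scaled, but they can carry the differences by gene length described below. Cdo1 over Csad was 3.10 ± 0.518 in Con, 2.93 ± 0.193 in HMD and 1.62 ± 0.177 in Bet+HMD, with no overlap of Bet+HMD with either group. Gclc over Gss was 7.81 ± 2.09, 9.58 ± 0.815 and 4.62 ± 0.574, and Gsr over Gpx1 was 0.272 ± 0.0577, 0.275 ± 0.0450 and 0.512 ± 0.0999, again without overlap. In each of these ratios the longer gene was the relatively higher one in Bet+HMD (Csad, Gss and Gsr). Gclc over Gclm was higher in all Bet+HMD samples, at 1.64 ± 0.243, than in HMD at 1.14 ± 0.164, but overlapped Con at 1.27 ± 0.355. There the shorter gene, Gclc, was the relatively higher one. The ratios were not corrected for length, and its part in them was not tested. Gpx4 over Gpx1 overlapped in all comparisons, at 3.19 ± 1.18, 2.80 ± 0.147 and 2.62 ± 0.238, so the fall of the 2 peroxidases could not be told apart in size. With 3 samples against 3, a two-sided exact permutation test cannot give a p under 0.1, which is the p of each separated pair of groups, and 0.214 after adjustment over the 15 tests. The 5 ratios of HMD and Con, taken in the earlier table, all overlapped (exact permutation p from 0.3 to 1).

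**Figure D3:**
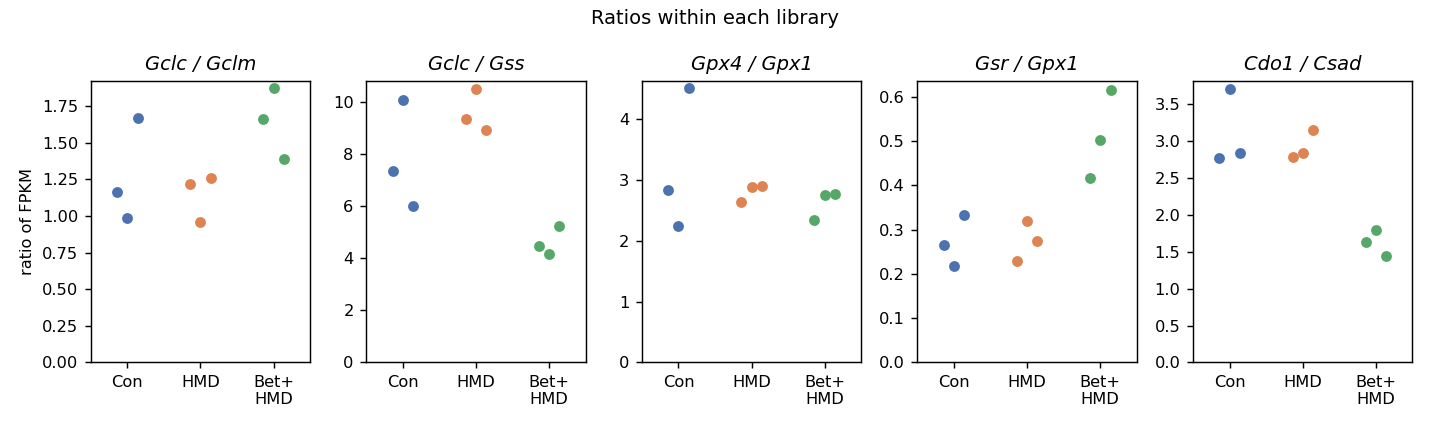
Ratio of the FPKM of 2 genes in each of the 9 libraries of the later table (vertical axes from 0, 1 point per library). The Bet+HMD points of Gclc over Gss, Gsr over Gpx1 and Cdo1 over Csad lie apart from both other groups, and those of Gpx4 over Gpx1 lie among them.

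Gene length moved with the difference of the Bet+HMD libraries. Over nuclear protein-coding genes the median log2 fold change against HMD was -0.38 for genes under 1000 bases, -0.35 from 1000 to under 2000, -0.15 from 2000 to under 4000 and 0.01 at 4000 and over. In the second class 45.1% of genes fell and 9.56% rose, and in the last 19.6% fell and 25.1% rose. Gpx1 (1441 bases), Cdo1 (1530) and Gpx4 (1724) are the shortest of the 10 genes and all fell, and Gss (5915) and Csad (3831), which rose, are longer. Gclm, at 6291 bases, fell too, in the class whose median was 0.01. After a correction for length the log2 fold change against HMD was -1.21 for Gpx4, -1.07 for Gpx1, -0.60 for Gclm and 0.69 for Gss, all still called, and that of Cdo1 was not. The sum of FPKM was also lower in Bet+HMD, at 249135 to 258514 against 289606 to 292361 in HMD and 288439 to 307899 in Con. Under TPM the median of all genes therefore moved to 0.16 against HMD and 0.17 against Con, and the share of higher genes among those called went from 47.2% to 69.5% and from 48.8% to 73.5%.

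**Figure D4:**
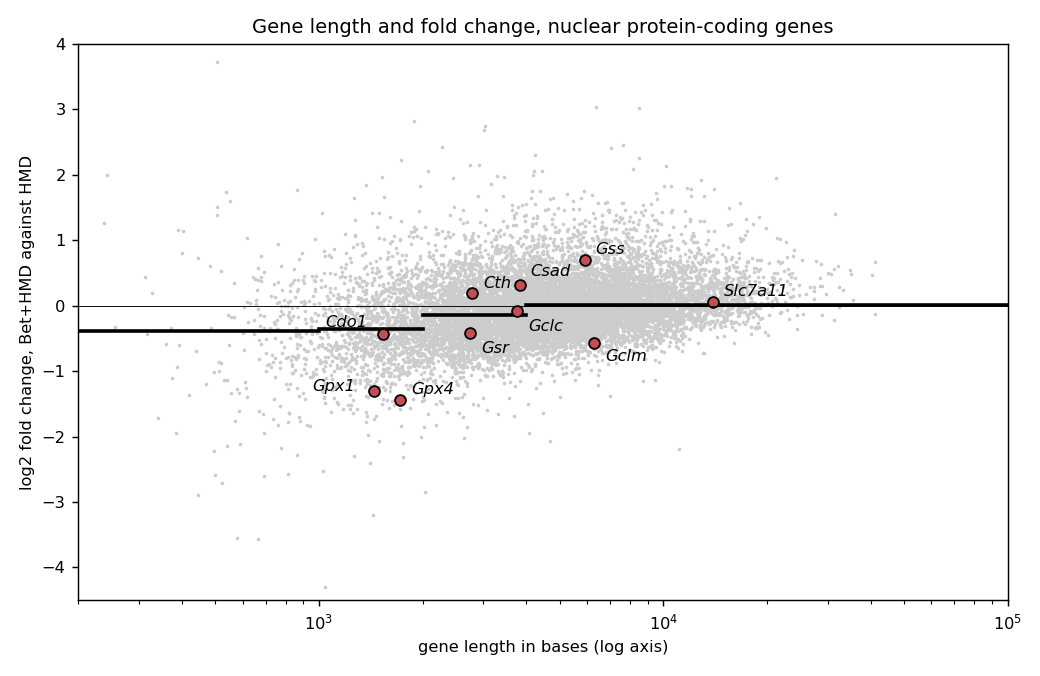
Gene length in bases (horizontal log axis) and log2 fold change of Bet+HMD against HMD (vertical axis) for nuclear protein-coding genes in grey, the 10 genes in red and the median of each of 4 length classes as black bars. Gpx1 and Gpx4 lie well below the median of their class, Cdo1 lies close to it, and Gss lies above and Gclm below that of theirs.

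Around the 10 genes stands a list of 82 others of the same pathways. In HMD against Con 0 of the 73 tested were called, and 2 had an unadjusted p under 0.05, with a median log2 fold change of -0.01. The smallest p of a gene that was higher was that of Ggt7, a member of the gamma-glutamyltransferase family, at 26.3 ± 1.98 FPKM in Con and 31.2 ± 1.66 in HMD (0.24, limma adjusted p = 0.98). Among those lower it was Tst, a mitochondrial sulfurtransferase, at 5.87 ± 0.168 and 4.59 ± 0.177 FPKM (-0.30, adjusted p = 0.98). In Bet+HMD against HMD 42 of 74 were called, 34 lower and 8 higher, where 25.5% of all genes were lower and 22.8% higher, and the median was -0.35. Against Con 37 of 73 were called, 30 lower and 7 higher, where 20.4% of all genes were lower and 19.4% higher, with a median of -0.41. Both medians were further below 0 than those of all genes and of genes with at least 5 FPKM, given above. Among genes with at least 5 FPKM most of those called were lower too. The counts and medians of both comparisons include Anpep, called higher in each. It passed the filter only through the Bet+HMD samples, so its test is not used below.

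The counts that follow stand beside 25.5% of all genes lower and 22.8% higher against HMD, and 20.4% and 19.4% against Con. No group was tested against another or against genes of its length or level. Of the glutathione-dependent enzymes 12 of 22 fell and 1 rose against HMD, and 11 fell and 0 rose against Con. Of the thioredoxin and peroxiredoxin genes, which remove peroxides in parallel to the Gpx enzymes, 9 of 14 fell against HMD and 10 of 14 against Con, and 0 rose. Txn1, thioredoxin itself, had 33.7, 24.9 and 39.9 FPKM in HMD and 12.3, 13.5 and 14.2 in Bet+HMD, and fell by 1.22 (SE 0.161, limma adjusted p = 0.000975). Prdx2, a cytosolic peroxiredoxin, had 49.3, 47.0 and 47.8 FPKM in HMD and 24.2, 23.4 and 19.4 in Bet+HMD, and fell by 1.08 (SE 0.093, adjusted p = 0.000198). Neither gene's Bet+HMD samples overlapped those of HMD or Con. Against Con the falls of Txn1, Prdx2 and Prdx5 were 1.43, 1.17 and 1.11 (adjusted p = 0.00189, 0.000691 and 0.0112). Txn1, Prdx5 and Prdx2 are 1051, 2139 and 3050 bases long.

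Gpx1 and Gpx4 contain selenocysteine, and the genes that build it into proteins form a list of 7. Of these, 3 rose and 1 fell in both comparisons. The gene that fell was Sephs2, which makes the selenium donor and is a selenoprotein too, from 12.8, 17.1 and 13.6 FPKM in HMD to 5.66, 6.02 and 6.33 in Bet+HMD (-1.14, SE 0.112, limma adjusted p = 0.000317). Pstk, a kinase that acts on the tRNA before selenium is added, rose by 0.48 against HMD (adjusted p = 0.0101) and by 0.59 against Con (adjusted p = 0.00935), from 1.53 ± 0.193 FPKM in HMD and 1.34 ± 0.254 in Con to 2.52 ± 0.25. Secisbp2, which binds selenoprotein messages, rose by 0.48 against Con (adjusted p = 0.0121), and this call was lost without Bet+HMD replicate 2 (adjusted p = 0.0533) or 3 (0.0555).

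The other groups are small, and some of their counts are near these shares of all genes. Of cystine supply and glutathione breakdown, 2 of 10 genes rose and 3 fell against HMD, and against Con 1 rose and 3 fell. Slc7a10, a brain transporter of small neutral amino acids, had 11.1, 6.49 and 8.97 FPKM in HMD and 12.5, 11.7 and 15.3 in Bet+HMD (0.55, SE 0.181, limma adjusted p = 0.0410), and its call was lost without HMD replicate 2 or 3 (adjusted p = 0.0680 and 0.0728) or without Bet+HMD replicate 1, 2 or 3 (adjusted p = 0.0841, 0.0616 and 0.130). Anpep, an aminopeptidase that can act on glutathione fragments, was at 0.667 ± 0.0401 FPKM in Con, 0.689 ± 0.0655 in HMD and 1.46 ± 0.174 in Bet+HMD. It passed the filter only through the Bet+HMD samples, which favours a rise, so its test is not used, and without it 1 gene of this group rose against HMD and 0 against Con. In sulfur amino acid breakdown 4 of 9 fell and 1 rose against HMD, and 2 of 8 fell and 2 rose against Con. NADPH supply, which feeds Gsr, had 2 of 5 lower in both comparisons. Regulators and their target enzymes had 3 of 7 lower and 1 higher against HMD, and 1 lower and 1 higher against Con.

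**Figure D5:**
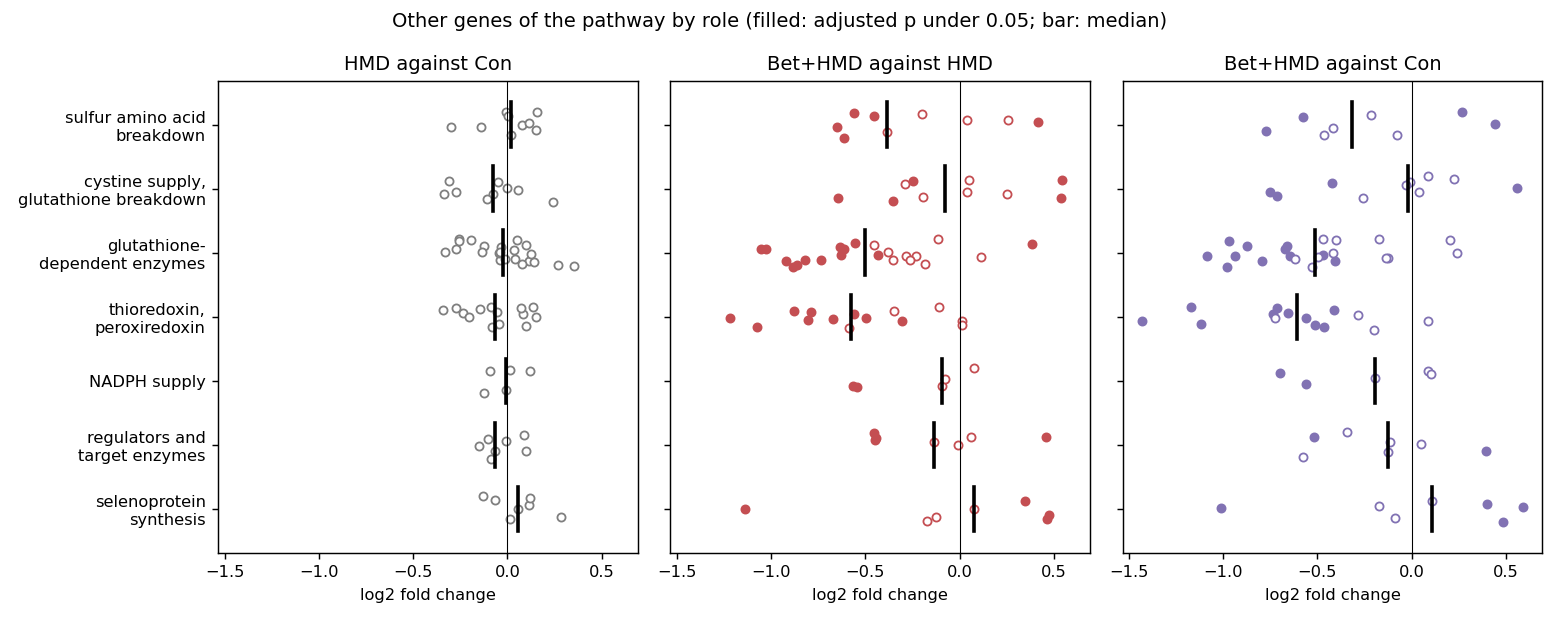
Log2 fold change on the log2(FPKM + 1) scale (horizontal axes) of the other pathway genes in 7 groups by role, in 3 comparisons, filled where the adjusted p of limma was under 0.05, with the median of each group as a black bar. All points of HMD against Con are open, and in both comparisons of Bet+HMD the medians of the glutathione-dependent and the thioredoxin and peroxiredoxin genes lie to the left of -0.5.

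Each of the 10 genes was set beside the gene whose level over the 9 libraries was most like it, out of 82 candidates with Pearson's r of log2(FPKM + 1). These values are a description, since the libraries of a group share their treatment and the length and scale of their reads. Gpx4 was most like Esd (r = 0.986), an esterase that completes a glutathione-dependent removal of formaldehyde, and Gpx1 was most like Prdx3 (r = 0.982), the mitochondrial peroxiredoxin. Within groups, after removing group means, these were 0.768 and 0.821. Gclm was most like Ado (r = 0.959), a dioxygenase of cysteamine, with 0.951 within groups, so that its spread among the Con samples was shared by Ado. Cdo1 was most like Glrx5 (r = 0.917), Gss like Secisbp2 (0.887), Gclc like Gstt1 (0.865), Slc7a11 like Sod2 (0.863), Gsr like Sephs2 (0.847) and Csad like Cbs (0.832). Within groups these were 0.884, 0.540, 0.899, 0.881, 0.427 and 0.678, lowest for Gsr and Gss. Cth had no close partner, with r = 0.549 for Slc7a10 as the highest.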

How the data were processed

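Total RNA of the hippocampus was depleted of ribosomal RNA and sequenced as stranded paired-end libraries. The authors used HISAT2 for alignment and featureCounts for counting (2.1.0 and 1.5.0-p3 per the submitters' processing notes, which differ from the study's methods). The deposited values are FPKM, with gene lengths and positions in other columns. Positions were the same as in GENCODE M21 (GRCm38) for 98.3% of 54495 matched genes and for 9 of the 10 members, Cdo1 being the exception. FPKM multiplied by gene length, in a unit fitted to each column, gave whole reads (within 0.05) for 100% of values. The library size implied by this unit was not the number of reads in genes. In the later table it was 1.042 to 1.049 times that number in Bet+HMD, 0.956 to 1.005 in HMD and 0.953 to 1.026 in Con. A floor of 3 reads, which covers counting error only, makes up at most 1.87e-05% of a library.

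Groups came from the sample titles, and columns with the prefix COL were read as Con by inference. The study's count tool was not run on the recovered reads, which entered only voom and the read numbers given. As the deposited values are FPKM, log2(FPKM + 1) was fitted by limma 3.58.1 in R 4.3.3 with a trend on mean level. Each pair of groups was fitted apart, for genes with a mean of at least 1 FPKM. The log2(FPKM + 1) scale understates changes of low genes. HMD and Con were compared in the earlier table, and Bet+HMD in the later one. p-values are two-sided and adjusted by Benjamini-Hochberg over all genes tested (threshold 0.05). The fit was tested on simulated data.

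The members, the list of 82 pathway genes and the markers were chosen with earlier results of these data known. Besides the members, the text names the 3 largest rises and falls of the list among called genes whose groups do not overlap, or else the smallest p in that direction, and the most alike gene of each member. Alternatives were a pseudocount of 0.1, no filter or one at 5 FPKM, TPM, quantile and median-ratio scaling, no trend, all 9 samples in 1 fit, voom, a replicate block, the later table, and leaving out each sample. The length correction (a loess curve on log2 gene length) and TPM over nuclear protein-coding genes were added after seeing the data. Promoter windows are from RefSeq (GRCm38.p6). Gene positions given for promoters and genes come from different annotations of that build.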

Additional observations from a re-analysis of the deposited data

How the results depend on the processing

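The count of called members was 0 for HMD against Con in every alternative, 5 to 7 for Bet+HMD against HMD and 3 to 6 for Bet+HMD against Con, and that of the pathway genes was 0, 31 to 49 and 26 to 43. Pathway counts in this section include Anpep wherever it was called. Gpx4, Gpx1, Gclm and Gss were called against HMD, and Gpx4 and Gpx1 against Con, in each alternative that tested them. A filter at 5 FPKM left out Cth, Slc7a11, Gss and Csad. Against HMD, Cdo1 and Gsr lost their calls under TPM over nuclear protein-coding genes (-0.22 and -0.20), and Csad without a filter (adjusted p = 0.0511) and under quantile scaling (0.0655). Against Con, Gss lost its call without a filter (0.0794), under quantile scaling (0.0645) and the length correction (0.0552), while Csad gained one under TPM (0.0219), TPM over nuclear protein-coding genes (0.00689) and the length correction (0.0387). Under quantile scaling Pstk lost its call against HMD. The causes were not tested.

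Values near 0 that were not called changed sign. For HMD against Con, Slc7a11 was -0.036 with the length correction, and leaving out 1 replicate gave -0.14 to 0.096 for Slc7a11 (negative without Con replicate 3, HMD replicate 1 or HMD replicate 2) and -0.00050 to 0.23 for Gpx4 (negative without Con replicate 1). Against HMD, Gclc was 0.11 under TPM, 0.079 under quantile scaling and 0.16 under TPM over nuclear protein-coding genes. Cth was -0.13 and Slc7a11 -0.012 under quantile scaling, and Slc7a11 was -0.10 with the length correction. Leaving out 1 replicate gave -0.010 to 0.48 for Cth (negative without HMD replicate 2) and -0.044 to 0.15 for Slc7a11 (negative without HMD replicate 3). Against Con, Cth was 0.015 under TPM, 0.043 with the length correction and 0.065 under TPM over nuclear protein-coding genes, Slc7a11 was -0.14 with the length correction, and Gsr was 0.038 under TPM over nuclear protein-coding genes. Leaving out 1 replicate gave -0.080 to 0.15 for Slc7a11 (negative without Con replicate 3) and -0.047 to 0.079 for Gclc (negative without Con replicate 1, Bet+HMD replicate 1 or Bet+HMD replicate 2).

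The samples were not paired by replicate number in the main fits. Deviations of same-numbered samples correlated at -0.06, 0.35 and 0.32 for HMD and Con. The values were 0.02, -0.10 and -0.15 for Bet+HMD and HMD, and -0.05, -0.09 and -0.18 for Bet+HMD and Con. Of the HMD samples, 2 correlated best with the Con sample of their own number, beside 0 in each comparison of Bet+HMD. In HMD against Con, 1034 genes had an unadjusted limma p under 0.05 with a replicate block, beside 592 without it. Whether the Con and HMD samples were paired was thus not settled. With the replicate block 0, 6 and 3 members and 0, 41 and 29 pathway genes were called. Csad against HMD (adjusted p = 0.0598), Gss against Con (0.0860) and Cbs against Con (0.113) lost their calls under it. Counting error is largest for Cth, with 24 to 101 reads per library of the later table.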
